A study of Mus musculus with 6 samples.

Results

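Macrophages and other myeloid cells of the mouse ovary were followed through 31 genes, compared between wild-type mice and mice lacking SeBP1 (gene symbol Selenbp1, which encodes selenium-binding protein 1, an enzyme that oxidises methanethiol). The genes were taken from a fixed list of macrophage, monocyte, neutrophil and pan-leukocyte genes, each matched to the array by its current symbol or an older one (Emr1 for Adgre1, Sfpi1 for Spi1). They had 41 probes, and 28 of the 31 genes could be tested, out of 19412 genes tested on the array. Ovaries came from female C57BL/6J mice at 20 weeks of age, 3 wild type and 3 SeBP1 KO, with 1 single-colour Agilent array (Cy3) per sample. The labels name no treatment and do not say how the SeBP1 allele was made, which part is deleted or whether each sample is 1 animal. The p-values therefore speak only to how much these arrays vary.

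Ovarian macrophages reside in the stroma and around follicles and enter the corpus luteum as it forms and regresses, where they clear dying cells and remodel tissue. Tissue macrophages depend on the receptor Csf1r and its ligand Csf1, secrete the 3 chains of complement C1q and take up debris through scavenger receptors. Monocytes are drawn from blood by chemokines such as Ccl2 acting on Ccr2. Neutrophils carry the calcium-binding alarmins S100a8 and S100a9, which monocytes also make. These were whole-ovary samples, in which fewer cells of a type and less RNA per cell cannot be told apart.

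Signals are given as log2 of the processed intensity of a probe minus the 75th percentile of that array, and differences as knockout minus wild type on the same scale. Between 61.6% and 69.3% of spots per array were well above background, and wild type replicate 3 had the smallest share. Replicates are given in the order 1, 2, 3 throughout. Selenbp1 stood at 2.68, 2.53 and 2.59 in wild type and at -0.11, 0.025 and -0.37 in the knockouts, so that the groups were far apart. The difference was -2.75 (standard error 0.13; adjusted p = 0.0104 by limma), although the labels do not say where the probe lies relative to the deletion. Wild type replicates 1 and 2 lay on one slide, and wild type replicate 3 and the 3 knockouts on another. The tissue label was borne out, since all 5 oocyte, all 5 granulosa and all 5 corpus luteum markers were measured.

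The probes that carry the main results read the following stretches, of which the first 30 bases of each are shown so that the gene-specific sequence behind a value can be seen. The build is mm9, per the file headers, the position is that of the whole probe, and capitals mark a CA repeat. Whether a probe lies in a coding exon or a UTR was not worked out here.
Cd68, chr11:69478979-69479038: ccgaatcctatacccaattcagggtggaag
C1qa, chr4:136452409-136452468: ccggccagctttctcagccattcggcagaa
S100a8, chr3:90473778-90473837: cttgttcagagaattggacatcaatagtga
S100a9, chr3:90496573-90496632: gtctaaagggaatggcttactcaatggcct
Itgam, brightest probe, chr7:135261755-135261814: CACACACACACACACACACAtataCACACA
Itgam, second probe, chr7:135260275-135260334: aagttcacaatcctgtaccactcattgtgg
Itgam, last probe, chr7:135212140-135212199: tgttaaccagacaggtgccctctaccagtg

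No myeloid gene passed the threshold between genotypes. With limma, 0 of 28 members had an adjusted p under 0.05, beside 0.00515% of all genes tested, and the smallest adjusted p among the members was 1.00. Unadjusted p-values under 0.05 were found for 2 members, Cd68 (higher in the knockout mean) and Marco (lower), or 7.14% beside 4.16% of all genes. The genotypes did not overlap in 1 member, Cd68, while 9.19% of all genes did not overlap. In 24 of 28 members the knockout mean was the higher one, a share of 85.7% beside 45.5% of all genes, and the lower ones were Csf1r, Ccr2, Cd14 and Marco. The median difference over the members was 0.18, against -0.017 over all genes. On the slide that held both genotypes, where 1 wild type stands against the 3 knockouts, 22 of 28 were higher with a median of 0.32.

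**Figure D1:**
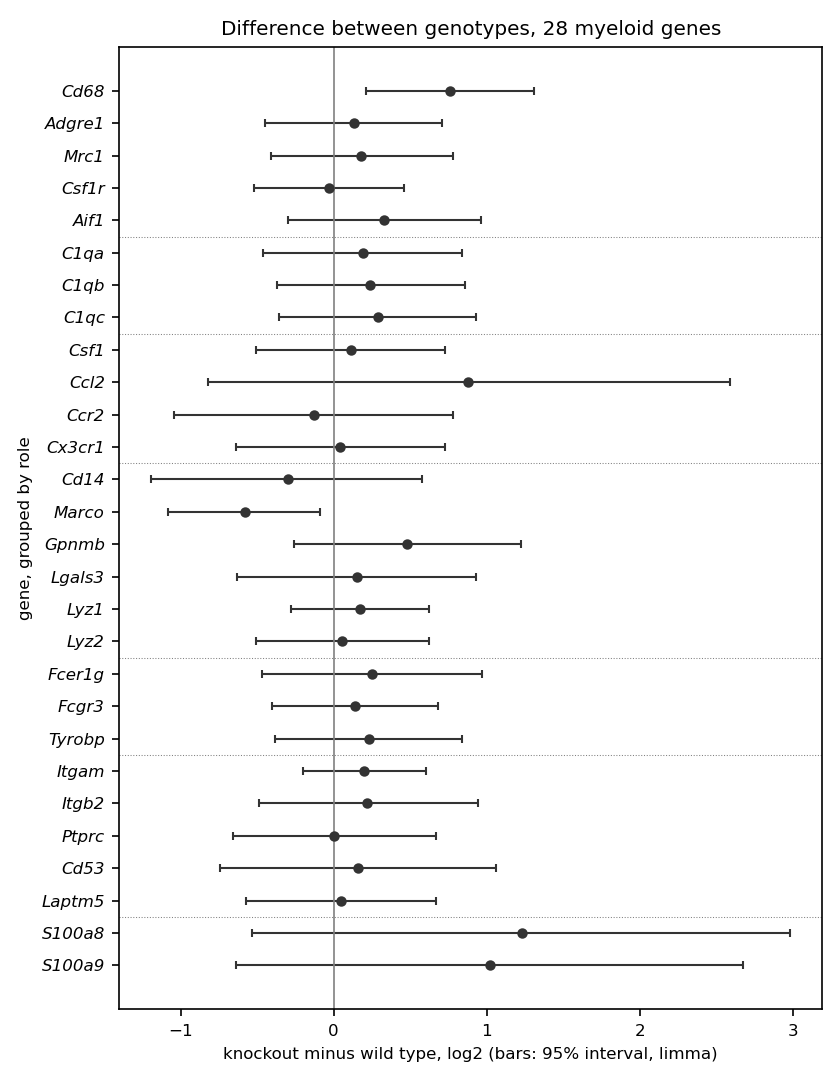
Knockout minus wild-type difference in log2 signal for the 28 tested myeloid genes, in order of role, with dotted lines between roles. Points are limma estimates from 3 arrays per genotype and bars are 95% intervals. The interval leaves out 0 for Cd68 (0.21 to 1.31) and Marco (-1.08 to -0.089) and includes it for the other 26, with the widest intervals for S100a8, Ccl2 and S100a9.

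From array to array, most members went up and down together. With each gene set against its own mean over the 6 arrays, the median over the 28 members was 0.089, -0.15 and -0.20 in wild type and 0.47, -0.47 and 0.32 in the knockouts. Knockout replicate 1 was the highest array for 19 members and knockout replicate 3 for 5, which makes 85.7% where 27.4% of all genes had their highest value on one of these arrays. Knockout replicate 2 was the lowest array for 23 members, or 82.1%, where it was the lowest for 20.8% of all genes. Both held for 21 of the 28 members, and for 8.9% of all genes. The pattern was seen in these same values and got no test, and the members share their arrays and in part their cells of origin.

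The knockouts therefore spread more than the wild types. The standard deviation over the 3 knockouts exceeded that over the 3 wild types in 25 of 28 members (89.3%), against 54.2% of all genes. Its median was 0.49 in the knockouts and 0.23 in wild type, where all genes had 0.18 and 0.17. Another scaling of the arrays left the order in place. Knockout replicates 1 or 3 were highest in 23 to 24 members and knockout replicate 2 lowest in 21 to 24 under quantile normalization, median scaling, normexp background correction and the deposited series table.

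**Figure D2:**
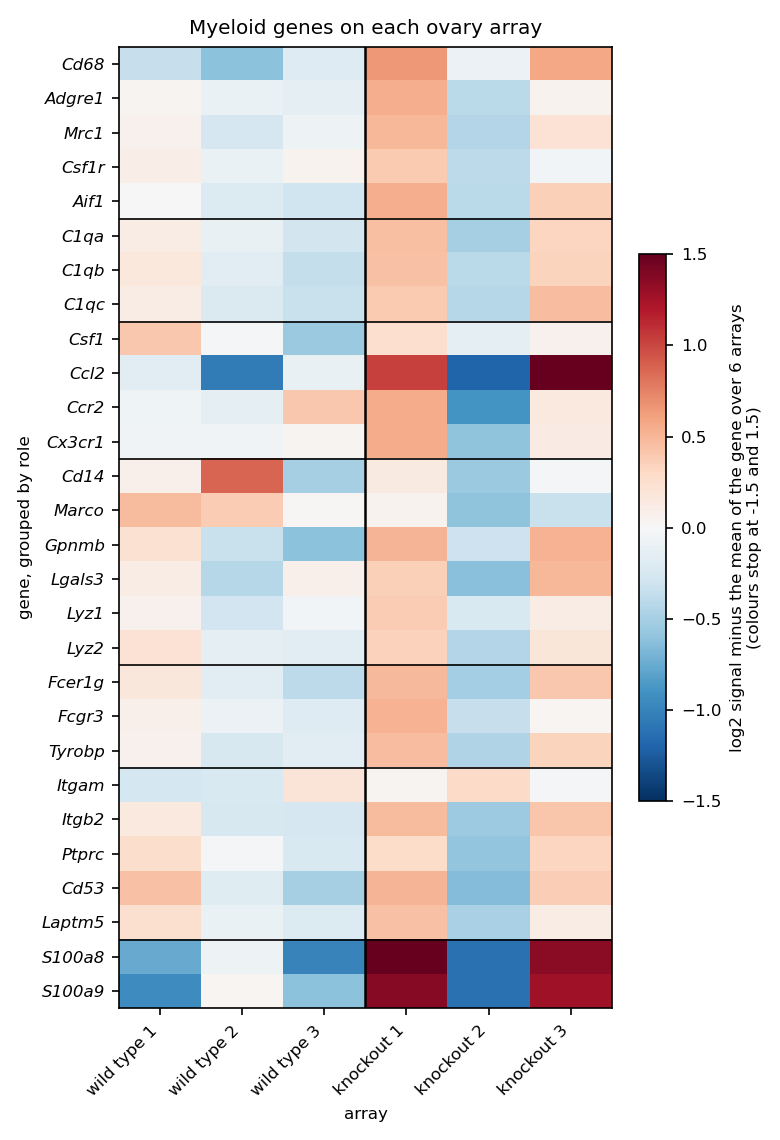
Heat map of log2 signal minus the mean of each gene over the 6 arrays, for the 28 tested myeloid genes (rows, grouped by role, lines between roles) on each array (columns, 3 wild type and 3 knockout). Knockout replicates 1 and 3 are above the mean in most rows and knockout replicate 2 below it, with member medians of 0.47, 0.32 and -0.47. Marco, Cd14, Csf1 and Itgam have their highest value on another array.

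Leaving out each array in turn showed how much single arrays set these counts. Without knockout replicate 2, the lowest array for most members, 13 of 28 members had an unadjusted p under 0.05, all higher in the knockout, beside 5.96% of all genes. The median difference was then 0.47, but 0 members passed the threshold and the smallest adjusted p by limma was 0.703, for S100a8. Leaving out the array already seen to be lowest raises the knockout mean of most members, so this count is no support for a difference. S100a8 was also not well above background in wild type replicate 3 and passed the filter through the knockouts alone. Without wild type replicates 1, 2 and 3 the counts were 1, 1 and 3 of 28, beside 3.10%, 2.56% and 6.85% of all genes. Without knockout replicates 1 and 3 they were 2 and 0 of 28, beside 4.60% and 3.12%. Without knockout replicate 1 the median difference was 0.012, with 16 members higher, so that most of the shift was gone without that array. Without wild type replicates 2 and 3 and knockout replicate 3 the median was 0.13, 0.12 and 0.11.

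Among the genes of tissue macrophage identity, Cd68, a lysosomal glycoprotein of macrophages, had the smallest p of all members. It stood at -3.12, -3.39 and -2.97 in wild type and at -2.13, -2.87 and -2.20 in the knockouts. All 3 knockouts lay above all 3 wild types, with knockout replicate 2 only just above wild type replicate 3. The difference was 0.76, or 1.69-fold, with a standard error of 0.23 (by limma, unadjusted p = 0.0143, adjusted p = 1.00). On the shared slide, with its single wild type, it was 0.57, and over the arrays left out in turn it ran from 0.63 to 0.99.

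Adgre1 encodes F4/80, a surface receptor that defines mouse macrophages. Its signal was -1.21, -1.35 and -1.38 in wild type and -0.70, -1.66 and -1.20 in the knockouts. The 3 wild types lay close together, knockout replicate 1 above them, knockout replicate 2 below them and knockout replicate 3 just above the highest wild type. The difference was 0.13 with a standard error of 0.24, and -0.11 without knockout replicate 1. The second Adgre1 probe had the same highest and lowest arrays, -1.56 in knockout replicate 1 and -2.48 in knockout replicate 2, and a difference of 0.18.

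Csf1r, the receptor for colony-stimulating factor 1, stood at 2.34, 2.14 and 2.29 in wild type and at 2.63, 1.85 and 2.20 in the knockouts. Knockout replicate 1 was again the highest array and knockout replicate 2 the lowest, on both sides of the wild types. The difference was -0.029 with a standard error of 0.20, and the 2 other Csf1r probes gave 0.15 and 0.095.

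Aif1, which encodes the actin-binding protein Iba1 of macrophages and microglia, stood at 0.60, 0.38 and 0.29 in wild type and at 1.14, 0.18 and 0.95 in the knockouts. Knockout replicates 1 and 3 lay above all wild types and knockout replicate 2 below them. Its difference of 0.33 had a standard error of 0.26 (limma, unadjusted p = 0.248), and was 0.14 without knockout replicate 1. Mrc1, the mannose receptor, ran from -1.86 to -1.54 in wild type and from -2.04 to -1.11 in the knockouts, with a difference of 0.18. Cd163, the haemoglobin scavenger receptor of resident macrophages, was not well above background on any of the 6 arrays and was not tested.

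The 3 chains of C1q, the recognition part of the classical complement pathway, followed the same course. C1qa stood at 0.96, 0.74 and 0.58 in wild type and at 1.31, 0.35 and 1.18 in the knockouts. C1qb stood at 1.11, 0.79 and 0.59 in wild type and at 1.39, 0.55 and 1.28 in the knockouts. C1qc stood at 0.99, 0.67 and 0.55 in wild type and at 1.28, 0.45 and 1.35 in the knockouts. For each chain knockout replicates 1 and 3 were above every wild type and knockout replicate 2 below every wild type, so that the genotypes overlapped. The differences were 0.19, 0.24 and 0.29 with standard errors of 0.27, 0.26 and 0.27, and limma gave an adjusted p of 1.00 for each. Without knockout replicate 2 they were 0.49, 0.51 and 0.58, and without knockout replicate 1 they were 0.0048, 0.087 and 0.16.

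Growth factor and recruitment genes included the tested member that ranged second widest. Ccl2, the chemokine that draws monocytes out of blood, stood at -2.03, -2.91 and -1.97 in wild type and at -0.84, -3.06 and -0.36 in the knockouts. Knockout replicates 1 and 3 lay above every wild type, and knockout replicate 2 was the lowest of the 6 arrays. The difference was 0.88, its standard error 0.71 (limma, unadjusted p = 0.255), within a 95% interval of -0.82 to 2.59. It was 1.70 without knockout replicate 2 and 0.35 without knockout replicate 3.

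Ccr2, the Ccl2 receptor of circulating monocytes, stood at -4.61, -4.69 and -4.14 in wild type and at -3.99, -5.44 and -4.40 in the knockouts. Here too knockout replicate 1 was highest and knockout replicate 2 lowest, while knockout replicate 3 lay among the wild types. The difference was -0.13 with a standard error of 0.38, and 0.28 without knockout replicate 2. Cx3cr1, the fractalkine receptor, ran from -1.04 to -0.94 in wild type and from -1.59 to -0.43 in the knockouts, with a difference of 0.044.

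Csf1, the growth factor that keeps macrophages alive, had another order of arrays. It stood at -0.91, -1.34 and -1.87 in wild type and at -1.07, -1.47 and -1.25 in the knockouts, all of them inside the range of the wild types. The difference was 0.11 with a standard error of 0.26 on the brightest probe and -0.24 and -0.36 on the 2 others. On the shared slide it was 0.61, since wild type replicate 3 was the lowest array.

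Of the genes of uptake and lysosome, Marco, a scavenger receptor, was lower in the knockout mean while most members were higher. It stood at -3.03, -3.12 and -3.48 in wild type and at -3.45, -4.10 and -3.83 in the knockouts. Knockout replicate 1 lay just above wild type replicate 3, and the other knockouts lay below every wild type. The difference was -0.58, its standard error 0.20 (limma, unadjusted p = 0.0274, adjusted p = 1.00). On the shared slide it was -0.31, and over the arrays left out in turn it ran from -0.75 to -0.43.

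Gpnmb, a membrane glycoprotein of lipid-laden and phagocytic macrophages, stood at 0.51, -0.051 and -0.33 in wild type and at 0.79, -0.031 and 0.80 in the knockouts. Knockout replicates 1 and 3 were above every wild type and knockout replicate 2 was among them. The difference was 0.48, its standard error 0.31 (limma, unadjusted p = 0.168), and 0.86 on the shared slide. Cd14, the co-receptor for lipopolysaccharide, ran from -2.53 to -1.16 in wild type, with its highest value in replicate 2, and from -2.59 to -1.90 in the knockouts, a difference of -0.30 that was 0.35 on the shared slide.

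Lgals3, the lectin galectin-3, differed by 0.15, and the lysozyme genes Lyz1 and Lyz2 by 0.17 and 0.057. Lyz1 and Lyz2 are near-identical neighbours, and how far their probes read each other is uncertain. Msr1, a scavenger receptor for modified lipoproteins, was well above background only in wild type replicate 1 and knockout replicates 1 and 3, on both of its probes, and was not tested.

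Signalling adaptors and pan-leukocyte genes varied in the same way around small differences. Fcer1g and Tyrobp, the adaptors that carry activation motifs, differed by 0.25 and 0.23, and the Fc receptor Fcgr3 by 0.14. In all 3 of these genes knockout replicate 1 was the highest array and knockout replicate 2 the lowest. Ptprc, the CD45 phosphatase of all leukocytes, stood at -3.86, -4.15 and -4.35 in wild type and at -3.84, -4.71 and -3.80 in the knockouts. Knockout replicates 1 and 3 lay just above the highest wild type and knockout replicate 2 below the lowest. The difference was 0.0026 with a standard error of 0.28, and the 95% interval ran from -0.66 to 0.67. Itgb2, the shared beta chain of leukocyte integrins, Cd53, a tetraspanin, and Laptm5, a lysosomal membrane protein of blood cells, differed by 0.22, 0.16 and 0.051, each with knockout replicate 2 as the lowest array.

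Itgam, which encodes CD11b, the alpha chain of the integrin Mac-1 on myeloid cells, went against this order on its brightest probe. That probe, which opens with a CA repeat of 20 bases as printed above, stood at 1.66, 1.70 and 2.12 in wild type and at 1.97, 2.21 and 1.91 in the knockouts. Knockout replicate 2 and wild type replicate 3 were its highest arrays, and the groups overlapped. Its difference was 0.20 with a standard error of 0.16, and -0.092 on the shared slide. On the array 54 probes held at least 12 bases of this repeat, and 92.6% of them passed the filter on background against 61.9% of all probes. Their median, relative to the mean of each probe, was also highest in knockout replicate 2 (0.14) and wild type replicate 3 (0.12). The part of the repeat in the Itgam signal was not tested. Of the other Itgam probes, the second stood at -5.25, -5.11 and -4.94 in wild type and at -4.93, -5.39 and -4.70 in the knockouts, and had its lowest array in knockout replicate 2. The second and last probes differed by 0.10 and -0.36.

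Spi1 encodes PU.1, the transcription factor that directs myeloid development and binds purine-rich sites around GGAA. Its probe was well above background on 4 arrays, wild type replicates 1 and 2 and knockout replicates 1 and 3, and was not tested. It stood at -5.42, -5.78 and -6.75 in wild type and at -2.89, -5.89 and -5.54 in the knockouts. Knockout replicate 1 stood apart from the other 5 arrays, which had no clear order by genotype.

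The neutrophil alarmins were, with Ccl2, the tested members that ranged most widely over the 6 arrays. S100a8 stood at -5.14, -4.46 and -5.38 in wild type and at -2.77, -5.50 and -3.03 in the knockouts. S100a9, its partner in calprotectin, stood at -3.83, -2.85 and -3.50 in wild type and at -1.52, -4.00 and -1.61 in the knockouts. For both genes knockout replicates 1 and 3 lay far above every wild type, and knockout replicate 2 was the lowest of the 6 arrays. The differences were 1.23 with a standard error of 0.73 for S100a8 and 1.02 with a standard error of 0.69 for S100a9 (limma, unadjusted p = 0.140 and 0.187). These are 2.34-fold and 2.02-fold, with 95% intervals that reached from -0.53 to 2.98 and from -0.64 to 2.67 on the log2 scale. S100a8 was not well above background in wild type replicate 3 and so passed the filter through the knockouts alone, and its higher knockout mean is no support for a difference. With the filter set to all 6 arrays, which drops it, 23 of 27 members were higher with a median of 0.17.

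**Figure D3:**
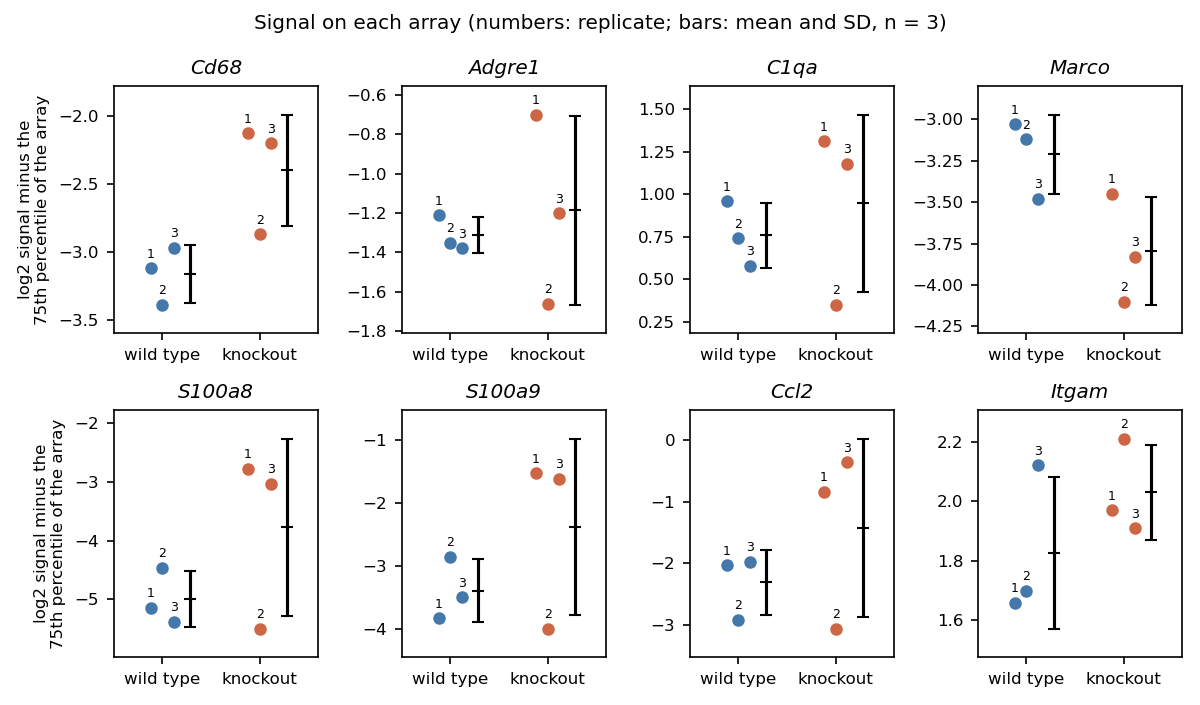
Log2 signal minus the 75th percentile of the array for 8 myeloid genes, by genotype, with 1 point per array, its replicate number above it, and the mean and SD of 3 arrays as a bar; the vertical axes differ between panels. Cd68 is the gene whose groups do not overlap, Marco is lower in the knockout mean, and S100a8, S100a9 and Ccl2 have knockout replicates 1 and 3 above and knockout replicate 2 below every wild type. Itgam, by the probe with the CA repeat, has knockout replicate 2 as its highest array.

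Resident macrophage genes and neutrophil alarmins were set apart and read per ovary. Of the 12 resident genes (Cd68, Adgre1, Csf1r, C1qa, C1qb, C1qc, Mrc1, Cd163, Cx3cr1, Aif1, Msr1 and Marco) 10 were tested and 8 were higher in the knockout mean. Their median difference was 0.18 (0.28 on the shared slide, -0.0069 without knockout replicate 1, 0.47 without knockout replicate 2). The mean difference of S100a8 and S100a9 was 1.12, or 1.37 on the shared slide, 0.66 without knockout replicate 1 and 1.96 without knockout replicate 2. S100a8 passed the filter through the knockouts alone and was not well above background in the only wild type of the shared slide. With the filter set to all 6 arrays S100a9 alone was left, at 1.02. On single arrays, again with genes set against their own means, the resident median was 0.082, -0.14 and -0.16 in wild type and 0.48, -0.42 and 0.27 in the knockouts. The alarmin mean was -0.85, -0.021 and -0.80 in wild type and 1.49, -1.12 and 1.31 in the knockouts. Both groups had the same 2 highest arrays and the same lowest one, and the alarmins swung more widely. They parted in wild type, where replicate 2 held the highest alarmin value and replicate 1 the highest resident one.

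Other neutrophil genes had another order of arrays than the alarmins. Of 14 listed, 7 were tested, 2 were higher and 5 lower in the knockout mean, and limma gave 0 of them an unadjusted p under 0.05. Their median difference was -0.14, or 0.073 without wild type replicate 2. Ngp, Mmp8 and Cxcr2, which mark maturing and mature neutrophils, were not well above background on any array, and Ly6g had no probe under its name. The list median per array was 0.0089, 0.13 and -0.038 in wild type and -0.19, -0.31 and 0.0026 in the knockouts. The 2 with the smallest p were Ltf, the iron-binding protein lactoferrin, and Elane, neutrophil elastase, at -2.74 and 0.28.

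Ltf reached 3.55 in wild type replicate 2 against -3.52 to -0.22 elsewhere. Lcn2, another iron-handling protein, chosen after its values were seen, reached 3.68 there against -2.76 to -0.034 elsewhere. Both are also made by reproductive tract epithelium, and Ovgp1, a secreted glycoprotein of the oviduct chosen after its values were seen, stood at 4.83 on that array against -3.49 to -1.13 on the others. Cd14 was highest on that array too. The part of oviduct tissue in these values was not tested.

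Further genes showed the same order of arrays in part, and not in every list. Knockout replicate 1 or 3 was highest and knockout replicate 2 lowest in 5 of 15 further macrophage genes and 4 of 11 recruitment genes. The same held for 7 of 13 ITAM signalling genes, 2 of 10 myeloid transcription factors and 2 of 16 lysosome and lipid-handling genes. It held for 0 of 7 other neutrophil genes, and for 8.9% of all genes. Among 15 further macrophage genes, all tested, 10 were higher with a median of 0.17, and 1 had an unadjusted p under 0.05. That gene was Timd4, a receptor for dying cells on long-lived resident macrophages, which stood at -5.25, -5.36 and -5.63 in wild type and at -6.02, -5.82 and -5.77 in the knockouts. All knockouts lay below all wild types, but only 1 knockout array was well above background, so that Timd4 passed the filter through wild type alone and its lower knockout values are no support for a difference. Lyve1, a hyaluronan receptor of some resident macrophages and of lymphatic vessels, stood at -2.22, -2.84 and -3.12 in wild type and at -3.27, -3.89 and -3.06 in the knockouts. Its knockouts were mostly lower, with 1 of them among the wild types, and the difference was -0.68 with a standard error of 0.30. The list median per array was 0.18, -0.073 and -0.31 in wild type and 0.41, -0.41 and 0.28 in the knockouts.

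Among 15 genes of monocyte recruitment and colony factors, 11 were tested and 10 were higher in the knockout mean, or 9 with quantile normalization, median scaling or normexp. With the filter set to all 6 arrays 8 of 9 were higher with a median of 0.22. The median difference of the 11 was 0.41, with 0 past the threshold and 2 at an unadjusted p under 0.05. These were Ccl3 and Ccl4, chemokines of activated macrophages, at 0.56 and 0.41 with standard errors of 0.22 and 0.16 (limma, unadjusted p = 0.0457 for each). Ccl3 stood at -4.49, -5.06 and -5.16 in wild type and at -4.15, -4.65 and -4.24 in the knockouts. The groups overlapped in wild type replicate 1 and knockout replicate 2. Ly6c2, a marker of inflammatory monocytes, had no probe under its name, and Csf2 and Ccr1 were not well above background on any array.

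The lists of ITAM signalling, myeloid transcription factor and lysosome genes had smaller median differences than those of macrophage and recruitment genes. Of 13 ITAM signalling genes tested (14 listed), 10 were higher with a median of 0.11, or 8 with quantile normalization or median scaling. Of 10 myeloid transcription factors 7 were higher with a median of 0.055. Id3, a regulator that some resident macrophages require but many other cells make, differed by 0.53 (limma, unadjusted p = 0.0498). Its knockouts lay above all wild types by very little, with 3.90 in knockout replicate 1 against 3.89 in wild type replicate 1. Of all genes, 9.19% did not overlap and 4.16% had an unadjusted p under 0.05. Of 16 lysosome and lipid-handling genes 6 were higher, or 2 with quantile normalization, with a median of -0.044. Over these lists 0 genes passed the threshold. Single arrays set the sign of some medians. Without knockout replicate 1 the further macrophage genes had a median of -0.013 and the recruitment genes one of 0.13. Without knockout replicate 3 the ITAM signalling genes were at -0.0061, without wild type replicate 2 the transcription factors at -0.025, and on the shared slide the lysosome genes at 0.025.

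**Figure D4:**
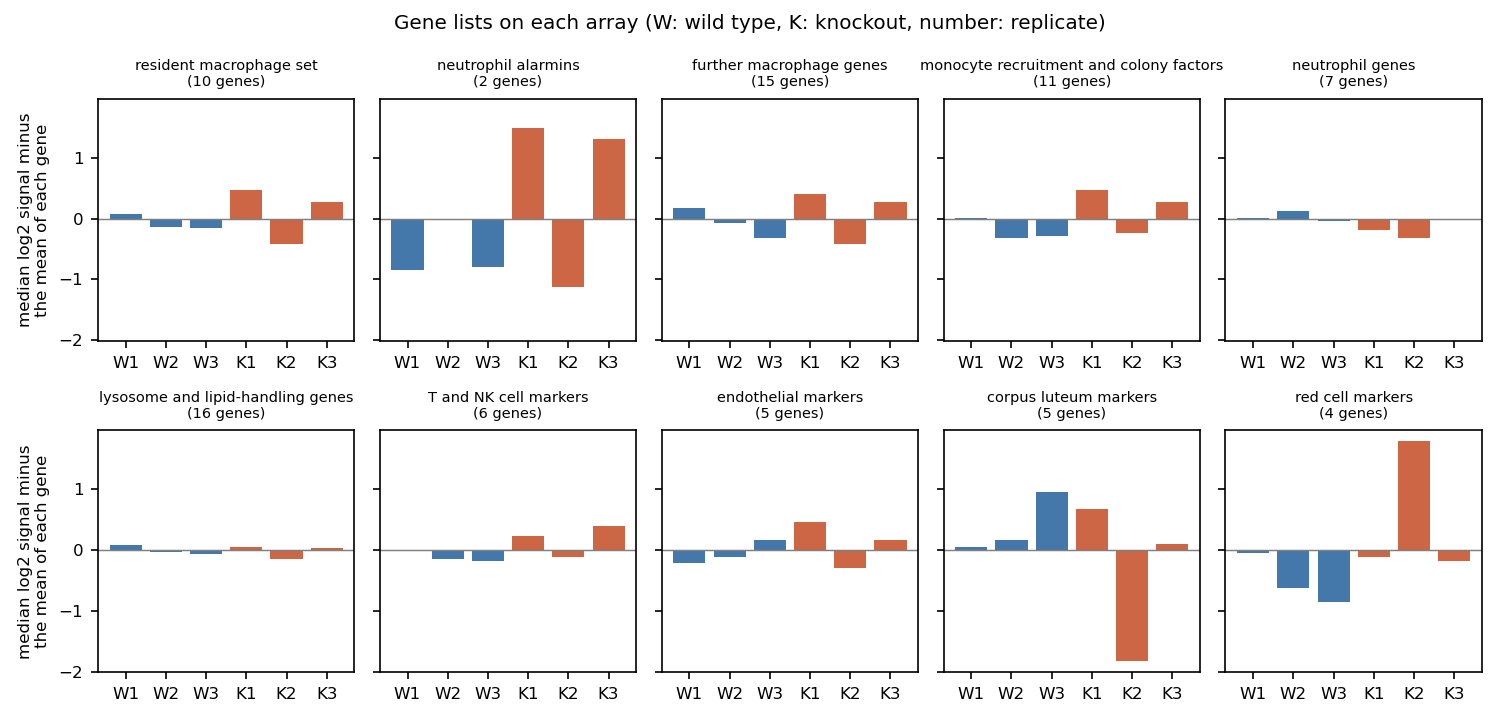
Median log2 signal, relative to the mean of each gene over 6 arrays, for 10 gene lists on each array (bars, wild type in blue and knockout in orange). The resident macrophage set and the alarmins are highest in knockout replicate 1 and lowest in knockout replicate 2, the neutrophil genes stay between -0.31 and 0.13, and knockout replicate 2 has the lowest corpus luteum value (-1.83) and the highest red cell value (1.79).

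Markers of luteal and red cells also stood apart in knockout replicate 2. The 5 corpus luteum markers had medians of 0.057, 0.16 and 0.96 in wild type and 0.68, -1.83 and 0.10 in the knockouts, and all 5 were lowest in knockout replicate 2. Red cell markers (4 tested) had medians of -0.045, -0.62 and -0.85 in wild type and -0.11, 1.79 and -0.17 in the knockouts. Endothelial markers, 5 of 5 tested, ran from -0.21 to 0.16 in wild type and stood at 0.47, -0.30 and 0.16 in the knockouts, with knockout replicate 2 close to the lowest wild type. Granulosa markers stood at 0.15, 0.12 and -0.68 in wild type and at -0.19, 0.0022 and 0.25 in the knockouts, and oocyte markers at 0.36, 0.42 and -0.46 and at -0.18, 0.40 and -0.49, so that knockout replicate 2 did not stand apart in these lists. The part of luteal tissue, blood or vessels in the myeloid values was not tested.

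Other leukocytes moved on some of the same arrays. T and NK cell markers (6 of 9 tested) had medians from -0.17 to -0.020 in wild type and of 0.23, -0.11 and 0.39 in the knockouts. Cd3g and Cd3d, subunits of the T cell receptor complex, had all knockouts above all wild types with differences of 0.65 and 0.84 (limma, unadjusted p = 0.0140 and 0.0206), where 9.19% of all genes did not overlap. Cd3e, another subunit of that complex, differed by 0.015, Cd4 by -0.028 and the kinase Lck by 0.031, all 3 named after their values were seen. Their wild-type means were -0.29, 0.065 and -0.45, far above -4.70 for Cd3g and -4.04 for Cd3d. Whether these brighter probes read T cells was not tested. Cd8a and Ncr1 were not well above background on any array. Dendritic cell markers (5 of 7) ran from -0.21 to 0.23 in wild type and stood at 0.24, -0.54 and 0.33 in the knockouts. B cell markers (3 of 5) stood at 0.26, 0.13 and -0.24 in wild type and at 0.24, -0.59 and -0.022 in the knockouts. Mast cell markers (4 of 6) had their lowest median, -0.99, in wild type replicate 3. With the filter set to all 6 arrays only 1 of them was left, since the others passed through the knockouts alone. That low median therefore lies near background and is no support for a difference. Fat cell markers (2 of 5) reached 2.63 in wild type replicate 1 against -1.62 to 0.26 elsewhere. The 2 genes differed in size there. Retn stood at 1.01 against -6.03 to -2.89 elsewhere, and Plin1 at 0.23 against -1.60 to 0.10. Retn was not well above background on every wild-type array and passed the filter through the knockouts alone.

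Because many members varied together from array to array, their promoters were searched for AGGAAG, a purine-rich word with the GGAA core, on both strands (AGGAAG or CTTCCT). RefSeq promoters of build GRCm38.p6, 250 bases before to 50 after the start, matched 22 of the 31 members with 24 promoters. The word occurred in 15 of these 24 (62.5%), and in 35.4% of 32851 promoters in all. Counted by gene, it occurred in 13 of the 22 members (59.1%), and in 38.4% of 27025 genes. The C1q and alarmin windows are those of C1qb, C1qc and S100a8, and there is none here for C1qa and S100a9. Itgam and Marco, which had another order of arrays, carry the word before the start too. Lyz1 and Lyz2 show how alike near-identical neighbours are. Each window lies before the start, is written along the gene and has the word in capitals.
C1qb, chr4:136886230-136886269, minus strand: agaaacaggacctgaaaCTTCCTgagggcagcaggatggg
C1qc, chr4:136893086-136893125, minus strand: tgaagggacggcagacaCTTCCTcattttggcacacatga
S100a8, chr3:90668883-90668922, plus strand: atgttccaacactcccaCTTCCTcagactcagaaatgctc
Itgam, chr7:128062540-128062579, plus strand: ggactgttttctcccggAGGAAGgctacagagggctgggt
Lyz1, chr10:117292945-117292984, minus strand: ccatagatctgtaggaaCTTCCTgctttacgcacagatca
Lyz2, chr10:117282349-117282388, minus strand: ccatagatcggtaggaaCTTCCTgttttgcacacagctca
A match describes letters in a window and is neither a binding site nor a cause of the shared order of arrays.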

How the data were processed

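RNA of 6 ovary samples (3 wild type, 3 SeBP1 KO, grouped by the genotype in the labels) was read on single-colour Agilent arrays. Per the file headers, the scanner files were written by version 10.7.1.1 of Feature Extraction. Their processed intensity, as deposited, is linear, background-subtracted and detrended within an array. A deposited table of the whole series holds intensity too, its normalization not given in the sources used here, and served as an alternative. Each array had 43020 spots that were not controls, for 39429 probes. Spots marked as outliers (192 to 459 per array) were left out, spots of a probe were averaged, and no spot was saturated. Values were log2 of the deposited processed intensity minus the 75th percentile of each array. A probe was kept if either genotype had it well above background on each of its 3 arrays, 24415 probes for 19412 genes, and the brightest kept probe stood for a gene. Of the 31 members 7 had several probes.

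The genotypes were set against each other in limma (3.58.1, R 4.3.3; lmFit, then eBayes) on all 6 arrays, two-sided, adjusted by Benjamini-Hochberg over all kept probes, with a threshold of 0.05. The procedure was tested on simulated data with independent probes, the same spread in both groups and changes larger than those of the members. That test does not speak to genes that vary together or spread more in the knockouts. Tables used pandas 2.3.3 with numpy 2.4.6, and plots matplotlib 3.10.9, under Python 3.11.15. Probes were named by RefSeq accession (26412), symbol (3854), older symbol (735) or the name in the file (8428), with a GRCm38.p6 gene table used for names only. The members and lists were chosen with earlier results of these data known. Values of every array are given for the 8 members with the smallest p, the 4 with the widest range and Adgre1, Csf1r, Csf1, C1qa, C1qb, C1qc, S100a8, S100a9 and Ptprc, and at most the 2 genes with the smallest p are named from each other list. Alternatives were normexp (offset 50), quantile and median scaling, the series table, other background filters, slide as a block or the shared slide alone, array weights, a replicate block, the mean over probes, and each array left out. The number of arrays limits the precision.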

Additional observations from a re-analysis of the deposited data

How the results depend on the processing

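Under every alternative run, 0 of the members passed the threshold. The median difference of the members stayed positive, between 0.11 and 0.47 apart from 0.012 without knockout replicate 1. Each value was within the spread between replicates (0.37) of the value reported. That spread is wider than the reported median of 0.18, so a lost shift would also have fallen within it. With Itgam read by a probe without the repeat, chosen after seeing the data, 24 members were higher. The count of genes called on the whole array was 1, and 0 with slide as a fixed block, on the shared slide, with no filter on dim probes and with the replicate block; over the arrays left out in turn it ran from 0 (wild type replicates 1 and 2, knockout replicates 1 and 3) to 18 (wild type replicate 3). The cause was not tested.

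Several small differences changed sign, none of them past the threshold on either side. Ccr2 was at 0.18 with array weights. Csf1 was at -0.17 as the mean over probes. Csf1r was at 0.066 with array weights, 0.0016 with the deposited series table and 0.072 as the mean over probes. Itgam was at -0.020 as the mean over probes and at -0.092 with slide as a block or on the shared slide. Ptprc was at -0.0095 with the series table, -0.029 with median scaling, -0.056 with normexp and -0.027 with quantile normalization. With each array left out, the range was -0.44 to 0.28 for Ccr2, -0.14 to 0.34 for Csf1, -0.23 to 0.16 for Csf1r, -0.16 to 0.30 for Ptprc and -0.11 to 0.37 for Adgre1.

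Samples that share a replicate number in the labels (their titles carry other numbers) had deviations that correlated at -0.33, 0.30 and -0.03 over genes. With 3 arrays a group these values cannot decide whether the samples were paired, and the main fit used no pairing. With the replicate block the member median was 0.18, 24 members were higher and 0 genes were called. With 3 arrays a group and 1 wild type on the shared slide, differences of the size seen in most members cannot be told from the spread between arrays, and members near background (Cd163, Msr1, Spi1) were not tested.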
